A study of Mus musculus with 13 samples.

Results

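The genes described here encode the nuclear subunits of the mitochondrial respiratory chain. They were chosen by symbol: names starting with Nduf followed by a, b, c, s or v, with Uqcr, with Cox and a digit from 4 to 8, or with Atp5, and the succinate dehydrogenase genes Sdha to Sdhd. The rule found 90 genes of 20325 in the files: 42 of complex I, 4 of complex II, 8 of complex III, 19 of complex IV and 17 of complex V. Of these, 83 were counted as subunit genes, with Ndufa4l2, a paralogue of Ndufa4, among them. The other 7 match by name only: the complex I assembly factor genes Ndufaf1 to Ndufaf4, Cox4nb (a gene of an endoplasmic reticulum complex, now Emc8), Atp5s, and Atp5sl (an assembly factor gene, now Dmac2).

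The respiratory chain sits in the inner mitochondrial membrane. Complexes I and II take electrons from NADH and succinate, complex III passes them to cytochrome c, complex IV passes them on to oxygen, and complex V, the ATP synthase, makes ATP from the proton gradient that builds up. Some subunits exist as paralogous isoforms, one widespread and another found mainly in tissues such as muscle or testis, and mouse pluripotent cells are known to change how much they use glycolysis and respiration as they move between states.

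The RNA came from mouse pre-iPSCs, which derive from embryonic fibroblasts and have halted partway through reprogramming, and was read as single-end libraries. Wild-type (WT) and Kdm3b knockout (KO) cells were sampled on days 0, 2 and 10 of AA+2i. Kdm3b is a histone demethylase that acts on H3 lysine 9, and AA+2i is ascorbic acid (50 µg/mL) with the GSK3 inhibitor CHIR-99021 and the MEK inhibitor PD-0325901. Each of these 6 groups had 2 libraries, lettered A and B, and 1 further library came from wild-type V6.5 embryonic stem cells (ESCs). All cells grew in a serum medium with leukaemia inhibitory factor. The day 0 libraries are titled DMSO although their treatment label reads AA+2i, and they are read here as the untreated starting point. The same treatment label stands on the ESC library, and what it received is uncertain. Nothing in the labels tells how the knockout was made, whether each genotype was 1 clone, or whether A and B came from separate cultures. The p-values below therefore measure the spread between these libraries, which may be technical.

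Levels are RSEM expected counts scaled to the library total (CPM, the share of the library in parts per 1000000), and library totals ran from 14891294 to 26430050. Log2 fold changes with their standard errors (SE) come from edgeR's quasi-likelihood test over the 12 pre-iPSC libraries, and a gene is said to rise or fall at a false discovery rate (FDR) under 0.05 over the 14324 genes tested. Kdm3b stood at 173 and 261 CPM in WT at day 0 and at 202 and 199.9 CPM at day 10, against 40.9 and 65.5 CPM and 19.8 and 41.5 CPM in KO. Of the 12 fibroblast markers, Fn1, the matrix protein fibronectin, stood at 463 to 4454 CPM over the 12 pre-iPSC libraries, and the other 11 together at 2.19 to 112 CPM. Of the 11 pluripotency markers, 10 passed the test in WT by day 10, with 8 higher and 2 lower.

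Of the 90 genes, 86 were tested. The other 4, Cox4i2, Cox6a2, Cox8b and Cox8c, are tissue-restricted isoforms of complex IV, and none exceeded 0.747 CPM in any of the 13 libraries. Cox4i2, the isoform known from lung, gave 14 counts in WT at day 10 and 3 in KO, and Cox6a2, the isoform of heart and skeletal muscle, gave 12 and 0. The 13 subunits encoded by the mitochondrial genome are not analysed here.

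Summed over all 90 genes, the chain took 1.13 and 1.16% of the library (11292 and 11620 CPM, A and B) in WT at day 10. In KO at day 10 it took 1.11 and 1.12% (11117 and 11165 CPM), below both WT libraries, but with TMM-scaled library sizes the genotypes overlapped (10812 and 11216 CPM in WT, 11028 and 11112 in KO). The ESC library held 14141 CPM, above all 12 pre-iPSC libraries. Short transcripts were also high in it: relative to the mean of the day 10 libraries, genes with transcripts under 1000 bases had a median of 0.25 and those over 4000 bases of -0.41, near the 0.22 and -0.25 of WT day 0 A. The part of transcript length in the ESC level was not tested. At day 0 the letters differed far more than the genotypes: WT gave 12156 CPM in A and 8159 in B, and KO 12462 in A and 8276 in B. The same order held at day 2, with 11903 and 9342 CPM in WT and 12617 and 8480 in KO.

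**Figure D1:**
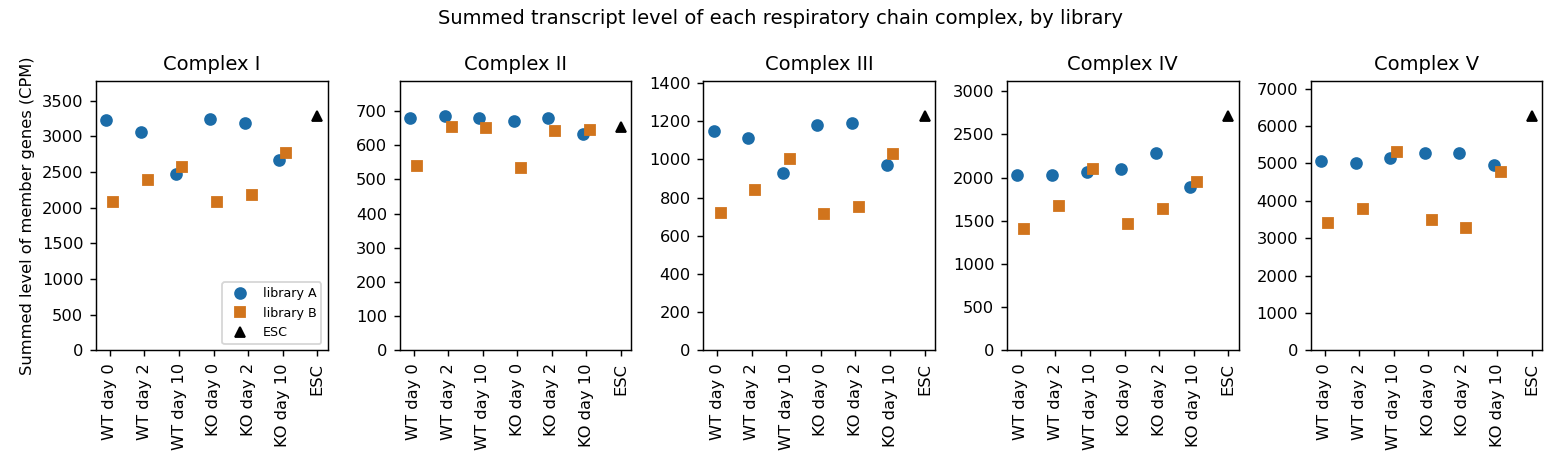
Summed CPM of the members of each complex in each of the 13 libraries, by group, with replicate A and B as separate points. At days 0 and 2 replicate A lies above replicate B in every complex and both genotypes, whereas at day 10 the 2 letters lie close together.

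The gap between letters ran with transcript length. The members tested have a median transcript length of 686.5 bases, against 2767 bases for all genes tested. At day 0, 79 of 86 members were higher in A than in B in WT and 78 in KO, and at day 2, 73 and 76. At day 10 these counts were 31 and 37. Over all genes tested, 36.2 to 38.2% were higher in A at days 0 and 2. The 1031 tested genes with transcripts under 1000 bases had a median A minus B of 0.53 (WT) and 0.52 (KO) on the log2(CPM + 1) scale at day 0, and the 3860 genes over 4000 bases a median of -0.47 and -0.44. Across days 0 and 2, 71 members were higher in A in all 4 groups and 5 were higher in B: Sdha, Uqcrc1, Cox6a1, Ndufaf4 and Atp5sl. Whether this difference between letters arose in the cells or in library preparation was not tested.

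**Figure D2:**
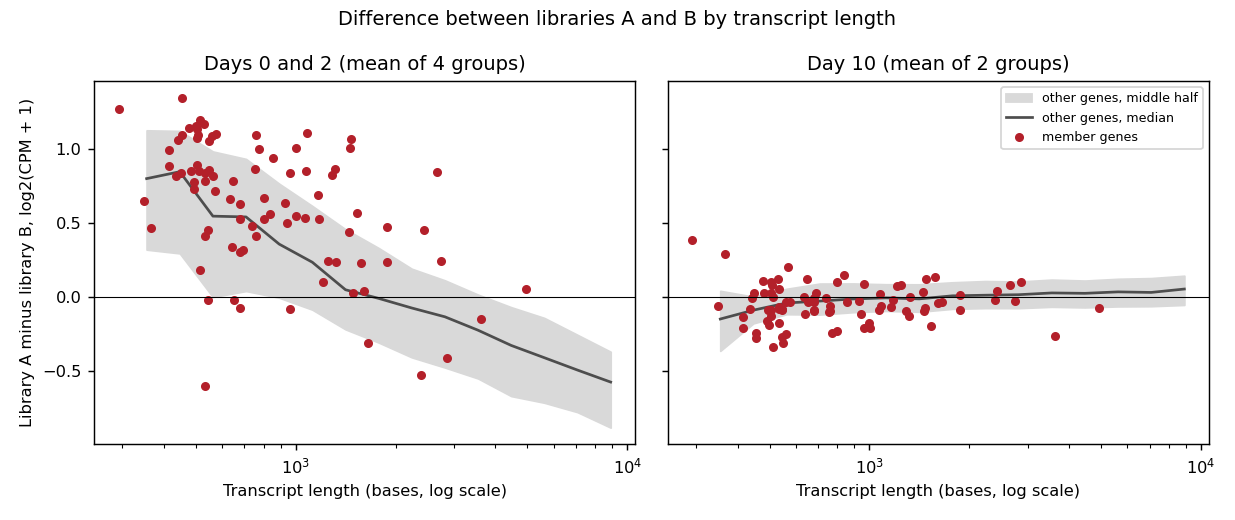
Library A minus library B in log2(CPM + 1) against transcript length in bases (log axis), averaged over the 4 groups of days 0 and 2 (left) and the 2 groups of day 10 (right), with 1 point per tested member and a line and band for the median and interquartile range of the other genes tested. Most members lie above 0 at days 0 and 2, where their group medians were 0.52 to 0.79, and near 0 at day 10.

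Changes over time were therefore read within a letter as well. From day 0 to day 10 the median member changed by -0.32 in the A libraries and by 0.47 in the B libraries of WT, and by -0.34 and 0.48 in KO. Only 27 of 86 members (31.4%) moved the same way in both letters, in WT and in KO alike, against 73.4 and 60.1% of all genes tested. The letters differ at day 0 but little at day 10, so these ratios keep the day 0 gap and opposite signs follow from it. From day 0 to day 2, where the letters share a pattern, 35 of 86 members moved the same way in WT (77.0% of all genes) and 65 in KO (75.9%). KO and WT at day 10 gave more even values, with 74 of 86 members on the same side in both letters, against 86.8% of all genes. The day 10 comparison of genotypes, in which letters differ little, carries the most weight below.

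Few members passed the test in any comparison. In WT, 1 of 86 members rose from day 0 to day 2, where 5.3% of all genes passed, and 5 passed by day 10 (4 higher and 1 lower), where 34.1% passed. In KO, 1 member rose by day 2 (6.39% of all genes) and 2 rose by day 10 (15.1%). Between KO and WT, 0 of 86 members passed at day 0 (8.29% of all genes), where 3 had an unadjusted p under 0.05 and DESeq2 also called 0. At day 2, 1 member was higher in KO (10.5%), and at day 10, 1 was higher and 4 were lower (32.3%). The interaction of genotype with day 2 gave 0 members, 1 at an unadjusted p under 0.05 and 0 by DESeq2 (0.195% of all genes passed), and that with day 10 gave 2 (12.6%). In each of these 9 comparisons the share of members called was below that of all genes. The gap between letters widens the spread of short transcripts at days 0 and 2, and its part in these low counts is taken up below by other fits.

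Most members stayed near 0. Between KO and WT at day 10 the median member differed by 0.06, against -0.02 for all genes. Over the alternative fits the member median ran from -0.04 (transcript length offset) to 0.10 (without WT day 10 B), so no direction is read from it. In the fit, 70 of 86 members lay within 0.5 on the log2 scale, against 6705 of 14324 genes. From day 0 to day 10 the median member changed by -0.05 in WT and -0.03 in KO, with 70 and 77 members within 0.5.

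**Figure D3:**
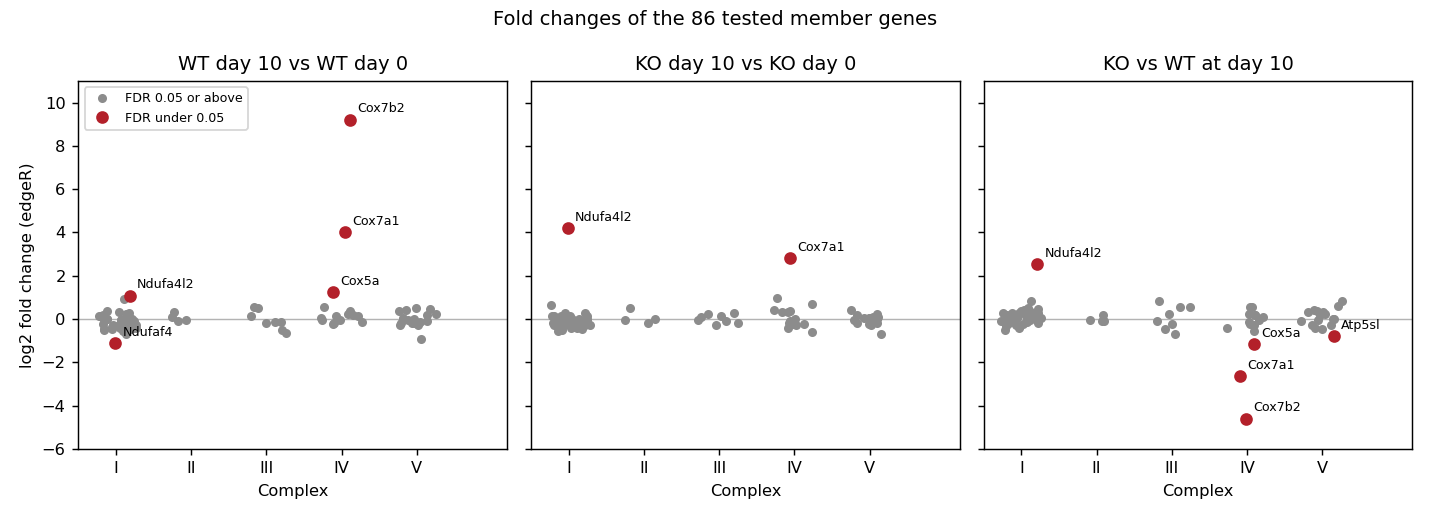
Log2 fold change from edgeR of each of the 86 tested members, by complex, from day 0 to day 10 in WT and in KO and between KO and WT at day 10, with points at an FDR under 0.05 in red and named. Most points lie within 0.5 of 0, and the called members furthest from 0 are Cox7b2, Ndufa4l2 and Cox7a1. Positions within a complex are spread sideways only to separate points.

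Complex I, NADH dehydrogenase, has the most members. Its highest level per kilobase of transcript over the 12 pre-iPSC libraries was that of Ndufa4 (292 CPM per kilobase), whose product is now assigned to complex IV, and its lowest that of the assembly factor gene Ndufaf4 (8.53). At day 10 the summed level was 2527 ± 70.4 CPM in WT (SD, n = 2) and 2718 ± 61.4 in KO. The KO libraries were both higher, at 2675 and 2761 CPM against 2477 and 2576. Ndufa4l2, taken up below, held 153 and 126 CPM of the KO sums and 23.6 and 25.5 of the WT sums. No test was made of this sum, and 41 of the 42 members did not pass in the comparison of genotypes at day 10.

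The exception was Ndufa4l2, a paralogue of Ndufa4 known as a target of hypoxia-inducible factor that lowers complex I activity. In WT the day 0 libraries held 11.96 and 10.1 CPM, those of day 2 51.1 and 49.5, and those of day 10 23.6 and 25.5. In KO the corresponding levels were 6.33 and 8.19, 55.9 and 68.2, and 153 and 126 CPM. The genotypes did not overlap at any day, with KO below WT at day 0 and above it afterwards. The differences at day 0 (-0.57, FDR 0.13) and day 2 (0.37, FDR 0.312) did not pass. With 2 libraries a group such separation is common: at day 10, 81.6% of all genes tested and 65 of 86 members did not overlap. The ESC library, at 11.8 CPM, was near the WT day 0 level.

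Ndufa4l2 rose by 2.15 (SE 0.196, FDR 0.00116) in WT and by 3.08 (SE 0.204, FDR 0.00018) in KO by day 2. By day 10 the rise over day 0 was 1.09 (SE 0.192, FDR 0.00257) in WT and 4.20 (SE 0.214, FDR 3.45e-05) in KO. The difference between genotypes at day 10 was 2.55 (SE 0.198, FDR 9.16e-05), and the interaction with day 10 was 3.12 (SE 0.275, FDR 0.000438). Per kilobase, Ndufa4l2 made up 2.85 and 5.04% of the pair Ndufa4 and Ndufa4l2 in WT at day 0 and 10.2 and 9.51% at day 10, against 1.63 and 3.72% and then 36.9 and 30.9% in KO. No other library exceeded 22.0%. Ndufa4 itself, at 107 and 124 CPM in WT and 134 and 144 in KO at day 10, did not pass (0.31, FDR 0.678). In the RefSeq annotation the 3′ end of Ndufa4l2 overlaps Shmt2 on the other strand, and the strand of counting is not stated. Shmt2 stood at 140 and 146 CPM in WT and 182 and 162 in KO at day 10 (0.32, FDR 0.283), and its part in the counts of Ndufa4l2 was not tested.

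Ndufaf4, which helps assemble complex I, fell in WT by day 10. Its day 0 levels of 37.1 and 45.3 CPM went to 32.9 and 37.7 (day 2) and 17.5 and 22.0 (day 10), so the day 10 libraries lay below all 4 earlier ones. The change was -1.11 (SE 0.168, FDR 0.00118). In KO it went from 32.1 and 32.9 CPM at day 0 to 23.2 and 27.0 at day 10 and did not pass.

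Complex II, succinate dehydrogenase, links the tricarboxylic acid cycle to the chain and is built from 4 subunits, all nuclear. None of the 4 passed in any of the 9 comparisons of the 12-library fit. With the letter as a block at days 0 and 2, Sdhc rose by day 10 in WT (0.39, FDR 0.00398) and in KO (0.53, FDR 0.000731). Sdha, the flavoprotein that oxidises succinate, stood at 307 and 288 CPM in WT and 283 and 263 in KO at day 10, and differed by -0.08 (SE 0.218). Sdhb, the iron-sulfur subunit, stood at 98.1 and 101 against 91.7 and 87.0 CPM. The membrane anchors stood at 115 and 104 against 97.4 and 111 CPM for Sdhc and at 158 and 159 against 161 and 184 CPM for Sdhd. Sdha, Sdhb and Sdhd did not overlap between genotypes at day 10 and Sdhc did, but with 2 libraries a group 81.6% of all genes tested did not overlap, and 65 of 86 members. The summed level was 665 ± 19.1 CPM in WT and 639 ± 8.66 in KO, and these sums overlapped with TMM-scaled library sizes.

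Complex III, the cytochrome bc1 complex, had 0 of 8 members called in the 12-library fit of KO against WT at day 10. Uqcrh, the hinge protein, was its highest member per kilobase (273 CPM per kilobase) and Uqcrfs1, the Rieske iron-sulfur protein, its lowest (84.7). The sums at day 10 were 966 ± 50.2 CPM in WT and 1001 ± 41.0 in KO, and they overlapped.

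Complex IV, cytochrome c oxidase, held 3 of the 5 members called between genotypes at day 10. Its summed level at day 10 was 2082 ± 20.1 CPM in WT and 1918 ± 39.3 in KO. Cox5a alone held 227 and 236 CPM of the WT sums and 104 and 95.9 of the KO sums. Of the 15 tested members of complex IV, 3 rose in WT by day 10. The same 3, Cox7b2, Cox7a1 and Cox5a, were lower in KO than in WT at that day. These 2 comparisons share the WT day 10 libraries. Cox7b2 also passed the low-count filter only through those libraries, where it was high, so its calls are given as description only.

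Cox7b2 encodes a testis isoform of subunit 7b. It had 0 counts in all 4 WT libraries of days 0 and 2 and 70 and 65 counts (3.86 and 4.20 CPM) in WT at day 10. The KO libraries had 1 and 2 counts (day 0), 0 and 0 (day 2), and 2 and 3 (day 10), and the ESC library had 9. Both WT day 10 libraries stood far above all others. The level was at least 61.2-fold higher in WT at day 10 than at day 0, taking 3 counts over the day 0 group as the floor (FDR 0.000342). WT exceeded KO at day 10 by a ratio of 26.1, with an exact 95% interval of 10.9 to 81.8 that covers counting error only, and the fitted difference was -4.61 (SE 0.463, FDR 0.00111). Even so, Cox7b2 made up only 5.74 and 5.73% of the pair Cox7b and Cox7b2 per kilobase in WT at day 10.

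Cox7a1 encodes the heart and skeletal muscle isoform of subunit 7a. WT libraries held 0.98 and 0.73 CPM (day 0), 1.79 and 0.72 (day 2), and 16.1 and 13.6 (day 10). KO libraries held 0.45 and 0.15 CPM, 1.49 and 0.60, and 2.69 and 1.88. The ESC library, which is high in short transcripts such as this one (366 bases), was at 10.0 CPM, between the 2 genotypes at day 10. Cox7a1 rose by 4.02 (SE 0.610, FDR 0.00120) in WT and by 2.81 (SE 0.689, FDR 0.0262) in KO by day 10, and KO was lower than WT at day 10 by -2.65 (SE 0.567, FDR 0.00729). The rise in WT and the rise in KO were not shown to differ, with an interaction of -1.22 and an FDR of 0.501. Per kilobase it made up 23.0 and 18.6% of Cox7a1 and Cox7a2 in WT at day 10, 5.62 and 3.84% in KO and 12.8% in ESCs. The call in KO over time was lost without any 1 of 4 libraries, with FDR 0.126 without KO day 10 A, 0.125 without KO day 0 B, 0.0583 without KO day 10 B and 0.0507 without WT day 10 B, and the call between genotypes was lost without KO day 10 B (FDR 0.0692).

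Cox5a encodes a subunit of complex IV found in all tissues. WT libraries held 106 and 82.6 CPM (day 0), 88.8 and 81.6 (day 2), and 227 and 236 (day 10). KO libraries held 105 and 83.7 CPM, 107 and 77.2, and 104 and 95.9, and the ESC library at 236. WT at day 10 was thus close to the level in the ESC library, which is high in short transcripts such as this one (692 bases). The 6 KO libraries and the 4 earlier WT libraries all lay between 77.2 and 107 CPM. Cox5a rose by 1.23 (SE 0.263, FDR 0.00672) in WT and was lower in KO at day 10 by -1.17 (SE 0.263, FDR 0.00917). The interaction with day 10 was -1.22 and did not pass (FDR 0.0648). The call between genotypes was lost without WT day 10 B (FDR 0.0534) or KO day 10 B (FDR 0.0639).

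The 250 bases upstream of the RefSeq start sites of these members are shown for GRCm38.p6, since Cox7b2, Cox7a1 and Cox5a moved together and Ndufaf4 moved the other way. The capitals in the Ndufaf4 window are its match to the NRF1 motif, and the other windows hold none of the 4 motifs searched.
Cox7b2, chr5:71548206-71548455, minus strand: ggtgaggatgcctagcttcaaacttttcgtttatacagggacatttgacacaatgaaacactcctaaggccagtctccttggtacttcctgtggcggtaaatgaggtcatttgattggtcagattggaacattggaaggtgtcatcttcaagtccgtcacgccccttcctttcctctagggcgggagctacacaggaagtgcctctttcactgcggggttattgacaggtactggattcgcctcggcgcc
Cox7a1, chr7:30183921-30184170, plus strand: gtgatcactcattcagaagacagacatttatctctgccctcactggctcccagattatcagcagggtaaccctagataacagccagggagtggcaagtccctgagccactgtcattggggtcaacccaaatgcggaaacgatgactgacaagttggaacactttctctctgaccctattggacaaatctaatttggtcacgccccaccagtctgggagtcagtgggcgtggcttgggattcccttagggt
Cox5a, chr9:57520982-57521231, plus strand: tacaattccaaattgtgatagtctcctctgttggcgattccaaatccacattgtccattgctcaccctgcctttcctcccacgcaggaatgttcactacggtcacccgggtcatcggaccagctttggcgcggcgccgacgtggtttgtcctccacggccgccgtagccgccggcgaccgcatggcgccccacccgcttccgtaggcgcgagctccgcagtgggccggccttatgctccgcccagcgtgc
Ndufaf4, chr4:24897833-24898082, plus strand: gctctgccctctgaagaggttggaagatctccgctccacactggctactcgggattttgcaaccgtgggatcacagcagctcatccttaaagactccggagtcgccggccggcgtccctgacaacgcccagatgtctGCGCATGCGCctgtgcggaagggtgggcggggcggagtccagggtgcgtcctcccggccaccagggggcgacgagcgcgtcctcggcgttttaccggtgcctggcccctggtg
The Cox5a window belongs to a start site inside the annotated gene. It holds 26 CpG dinucleotides and that of Ndufaf4 23, against 9 for Cox7b2 and 4 for Cox7a1. The median was 14.5 over the 80 windows of 74 members in the table and 6 over all 32851 windows. The NRF1 motif, the run in capitals above, searched on both strands, was in 5 of the 80 member windows (6.25%) and 0.782% of all windows, and its members were Atp5g2, Atp5k, Cox6a1, Ndufa11 and Ndufaf4. On both strands, the ETS motif CCGGAAG was in 16.2% of member windows against 6.91% of all, AAGATGGC of YY1 in 2.5 against 1.56%, and TCAAGGTCA, the estrogen-related receptor element, in 1.25 against 0.387%. The NRF1 and ETS motifs hold CpG dinucleotides, in which member windows are rich, and these shares were not matched for CpG count. A match is a run of letters and shows no binding.

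Among the other isoforms of complex IV, Cox6b2, the testis isoform of subunit 6b, was higher in KO at day 2. It stood at 103 and 78.9 CPM in KO and 49.8 and 51.0 in WT, a difference of 0.93 (SE 0.212, FDR 0.0245). It no longer passed without WT day 2 A (FDR 0.113), WT day 2 B (0.127), KO day 2 A (0.108) or WT day 10 B (0.0523), with the transcript length offset (0.127), or with only the groups compared (0.222). At day 10 the levels were 69.0 and 73.2 CPM in KO and 52.0 and 48.9 in WT, and the ESC library was at 35.0. Cox4i1, Cox6a1, Cox6b1, Cox7a2, Cox7b and Cox8a, the widespread isoforms, and Cox7a2l did not pass between genotypes at day 10 in the 12-library fit. Their differences ran from -0.26 (Cox7a2) to 0.54 (Cox7a2l). In the fit to the day 10 libraries alone, Cox7a2l (FDR 0.00127), Cox6b1 (0.25, FDR 0.031) and Cox6b2 (0.54, FDR 0.00099) were higher in KO and Cox7a2 lower (FDR 0.0401).

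**Figure D4:**
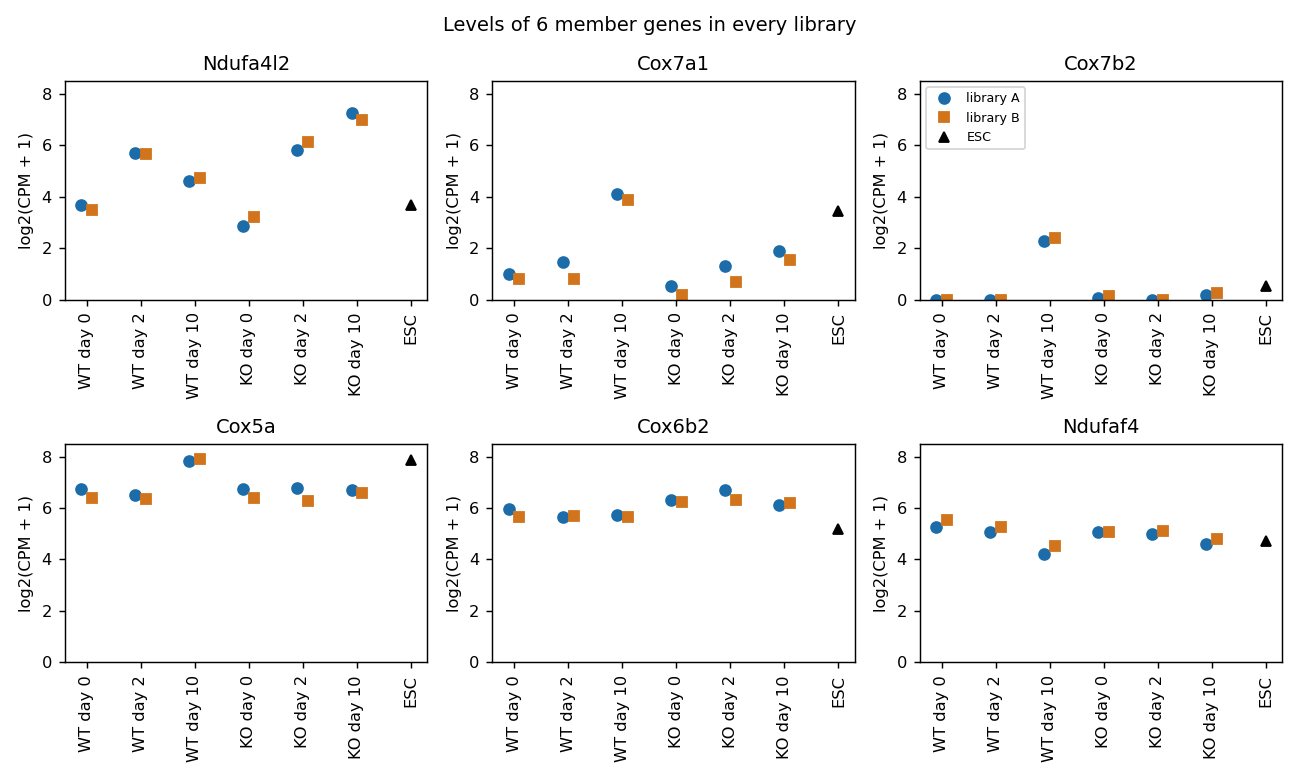
Level of 6 members as log2(CPM + 1) in each library, by genotype and day, with library A as circles, library B as squares and the ESC library as a triangle. WT day 10 stands above the other pre-iPSC groups for Cox7b2, Cox7a1 and Cox5a and below them for Ndufaf4, and KO day 10 is highest for Ndufa4l2.

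Complex V, the ATP synthase, was the most abundant, with Atp5b, the catalytic beta subunit, at 792 CPM per kilobase. The summed level at day 10 was 5217 ± 111 CPM in WT and 4864 ± 116 in KO, and KO was lower in both libraries. Atp5b alone held 1865 and 1938 CPM of the WT sums and 1570 and 1476 of the KO sums. Only Atp5sl was called at day 10, at 27.0 and 29.0 CPM in WT and 15.9 and 15.2 in KO (-0.80, SE 0.251, FDR 0.0380). It is no subunit of the synthase, and its call did not hold in 10 of 20 alternatives. The 3 genes for the c subunit that forms the rotor ring, Atp5g1, Atp5g2 and Atp5g3, encode the same mature protein. Atp5g1 stood at 117 and 117 CPM in WT and 88.2 and 76.0 in KO at day 10, and Atp5g3 at 209.8 and 234 against 286 and 259. None of the 3 was called in the 12-library fit. In the fit to the 4 day 10 libraries described below, Atp5g1 was lower in KO (-0.46, FDR 0.00305) and Atp5g3 higher (0.34, FDR 0.0137).

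The 12-library fit shares 1 estimate of spread over all groups, which includes the gap between letters at days 0 and 2. A fit to the 4 day 10 libraries alone leaves few degrees of freedom, the reason given in the design for sharing the spread over the 6 groups. Run as an alternative, it called 37 of 86 members between genotypes, 21 higher and 16 lower in KO, where 62.3% of 13734 genes passed. Of these 37, 33 differed by less than 1 on the log2 scale. By complex, 13 of 42 members of complex I were called (9 higher), 0 of 4 of complex II, 5 of 8 of complex III (3 higher), 9 of 15 of complex IV (3 higher) and 10 of 17 of complex V (6 higher). The share of members called, 37 of 86, was again below the share of all genes.

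The members named from that fit were chosen after their values were seen. Uqcrh was higher in KO, at 151 and 196 CPM against 93.9 and 105 in WT (0.85, SE 0.132, FDR 0.00043). Atp5l, a subunit of the synthase's membrane part, stood at 129 and 151 against 67.5 and 92.8 CPM (0.85, SE 0.151, FDR 0.000961). Ndufb11 stood at 134 and 143 against 81.6 and 79.8 CPM (0.82, SE 0.0900, FDR 4.96e-05). In all 3 genes both KO libraries exceeded both WT libraries. At day 10, however, 65 of 86 members and 81.6% of all genes tested did not overlap between genotypes. Members lower in KO included Uqcr10, at 57.4 and 51.0 against 84.5 and 96.5 CPM (-0.69, SE 0.110, FDR 0.000491). Cox6c stood at 97.4 and 105 against 147 and 155 CPM (-0.54, SE 0.0915, FDR 0.000778). Uqcrc1, a core protein of complex III, stood at 172 and 167 against 232 and 250 CPM (-0.46, SE 0.0901, FDR 0.00164). Members of the same complex thus lay on both sides of 0, Uqcrh and Uqcr10 in complex III among them. None of these 6 was called in the 12-library fit.

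A further fit took the letter as a block at days 0 and 2, on the measured likeness of the letter differences there and not on a pairing that the labels give. It called 8 members in WT by day 2 (30.1% of all genes) and 9 in KO (29.5%). By day 10 it called 40 in WT (65.7%) and 25 in KO (47.8%). Between genotypes it called 11 at day 0 (30.4%), 9 at day 2 (36.7%) and 38 at day 10 (63.8%), and 3 and 25 in the interactions with day 2 (7.74%) and day 10 (44.6%). Again each share of members was below that of all genes.

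In that fit Ndufa4l2 rose by day 2 in both genotypes, and more in KO, with an interaction of 0.94 (FDR 0.0137). Ndufa2 (-0.51 in WT, -0.50 in KO), Ndufb8 (-0.39 and -0.57) and Atp5sl (-0.40 and -0.45) fell by day 2 in both genotypes. Ndufa2 and Ndufb8 are accessory subunits of complex I. Cox6b2 was higher in KO at day 0 (0.53) and day 2 (0.91), as were the accessory subunit Ndufc2 (0.55 and 0.38), Atp5j2 (0.47 and 0.37) and Cox6a1 (0.28 and 0.43). Cox7a1 was already lower in KO at day 0 (-1.44, FDR 0.0207). These members were chosen after their values were seen.

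Genes around the chain gave these counts between KO and WT at day 10 in the 12-library fit, where 32.3% of all genes passed. Of 11 electron carriers and subunits outside the symbol rule, 1 was lower in KO: Cyct, the testis cytochrome c, with 638 counts in WT at day 10, 6 in KO, and 0 in WT at day 0. The ratio of WT to KO at day 10 was 103, with an exact 95% interval of 47.0 to 281 for counting error only. Like Cox7b2, Cyct passed the low-count filter only through the WT day 10 libraries. Its level, 20.9 and 16.8 CPM in WT at day 10, compares with 112 and 131 CPM for the widespread form Cycs in these 2 libraries, and the ESC library held 26.3 CPM of Cyct. Of 25 assembly factor genes outside the rule, 3 were higher in KO: Bcs1l (0.59), which inserts the Rieske protein, and Cox19 (1.19) and Sco2 (1.08), which help deliver copper to complex IV.

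None of 14 genes of the tricarboxylic acid cycle was called by edgeR at day 10 between genotypes, 2 having an unadjusted p under 0.05. Of 10 genes of pyruvate dehydrogenase and its regulators, 1 was higher and 2 lower. Pdk4, a kinase that turns pyruvate dehydrogenase off, stood at 12.6 and 11.4 CPM in WT at day 10 and at 0.25 and 0.12 in KO (-5.93, FDR 0.000514). Like Cox7b2, Pdk4 passed the low-count filter only through the WT day 10 libraries, so its call is given as description only. Pdk1, another such kinase, stood at 56.1 and 59.9 CPM in WT and 147 and 120 in KO (1.25, FDR 0.00423). Of 19 regulators of respiratory chain genes, 1 was higher and 2 lower, among them Esrrb, a nuclear receptor of naive pluripotent cells, at 408 and 434 CPM in WT and 24.8 and 8.48 in KO (-4.61, FDR 0.00025). Of 76 mitochondrial ribosomal protein genes, 3 were higher and 2 lower, and of 91 cytosolic ones, 3 were higher and 6 lower.

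Cell state markers moved with these results. At day 10, where 32.3% of all genes passed, 8 of 11 pluripotency markers were lower in KO than in WT and none higher, and so were 6 of 10 tested fibroblast markers, 4 of 5 trophectoderm markers and 2 of 4 primitive endoderm markers. Of 6 neural markers, 2 were higher and 1 lower. Among the markers tested, Dcn, Postn, Cdx2 and Sox17 passed the low-count filter only through the WT day 10 libraries, as Cox7b2 did. The counts of fibroblast, trophectoderm and primitive endoderm markers are therefore given as description only. The summed level of the pluripotency list was 6279 and 7054 CPM in WT and 3970 and 4781 in KO. Pou5f1 and Klf4, not called, went the other way. Pou5f1 made up 1265 and 1387 CPM of that sum in WT and 2510 and 3185 in KO, and Klf4 356 and 318 against 622 and 824. The summed level of the fibroblast list was 3381 and 2853 CPM in WT and 1872 and 1636 in KO. Fn1 alone made up 3299 and 2741 CPM of this in WT and 1857 and 1625 in KO, and the other 11 genes 82.3 and 112 against 14.2 and 11.6. Of the 12 fibroblast genes, 2 and 1 were at 0 in WT and 2 and 6 in KO at day 10, and Col1a1 stood at 49.5 and 77.4 CPM in WT and 0.50 and 0 in KO. In bulk libraries fewer cells of a type and less RNA per cell cannot be told apart, and the part of cell composition in the changes of Cox7b2, Cox7a1, Cox5a and Ndufa4l2 was not tested.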

How the data were processed

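Single-end TruSeq libraries of 12 pre-iPSC samples and 1 ESC sample were analysed. The deposited values are expected counts per gene; per the submitters' processing notes the authors used Bowtie2 and RSEM with mm9, with no version stated. After rounding, the expected counts entered edgeR 4.0.16 in R 4.3.3 (quasi-likelihood test, filterByExpr, TMM factors, 6 groups of 2, Benjamini-Hochberg over all genes tested). DESeq2 1.42.0 was an alternative. The ESC library entered no test. CPM uses the library total, fold changes use TMM factors, and within-letter differences use log2(CPM + 1). Levels between genes are per kilobase of the transcript length in the files. The fit was also run on simulated data, for KO against WT at day 10 only. The simulated libraries held no shared difference between letters, so the other comparisons were not tested.

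Groups came from titles, genotypes and time points. Genes named are complex II, the isoform sets, up to 3 called members per complex, direction and comparison, the highest and lowest member per complex, and untested members. The members and lists were chosen with earlier results of these data known. Motifs were chosen by name, and their letters were written after some promoter sequences had been seen, as was the choice of promoters printed. Promoter sequences are from RefSeq (GRCm38.p6), matched by gene symbol. Alternatives were scaling, tool, filter, letter as a block, a transcript length offset, fewer groups in the fit, subunits only, and each library left out.

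The labels do not pair samples by letter, so the letter is no term of the fit unless said. Library totals of 14891294 to 26430050 set the precision of low counts, and exact intervals cover counting error only.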

Additional observations from a re-analysis of the deposited data

Results flagged for a closer look

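Ndufa4l2 changed differently in the 2 genotypes by day 10, with an interaction of genotype with day 10 of 3.117 on the log2 scale (SE 0.275, FDR 0.000438 by edgeR). It went from 11.96 and 10.1 to 23.6 and 25.5 CPM in WT and from 6.33 and 8.19 to 153 and 126 CPM in KO.

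Cox7b2, which passed the low-count filter only through the WT day 10 libraries, also changed differently by day 10. Its interaction was -8.229 (SE 1.31, FDR 0.0137). With 0 counts in both WT libraries of day 0, the size of this fitted value depends on the prior count, and the counts are 0 and 0 against 70 and 65 in WT and 1 and 2 against 2 and 3 in KO. The call was lost without WT day 10 A (FDR 0.0581), WT day 10 B (FDR 0.0584) or KO day 0 B (FDR 0.0956).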

How the results depend on the processing

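Over the alternatives, 313 values of the named members stayed on their side of the threshold, 27 lost the call and 0 turned direction. A-minus-B differences correlated at 0.741 to 0.812 across genes between the 4 groups of days 0 and 2, and at -0.061 to 0.049 with or between day 10 groups, so the letters share a pattern at days 0 and 2 that the labels do not explain. With the letter as a replicate block at days 0 and 2 only, members called were 8 in WT by day 2, 40 in WT by day 10, 9 in KO by day 2, 25 in KO by day 10, 11 between genotypes at day 0, 9 at day 2 and 38 at day 10 (22 higher, 16 lower, which turns the balance), with 3 and 25 for the interactions with day 2 and day 10. All genes called under it were 30.1, 29.5, 30.4, 36.7 and 63.8% for WT day 2, KO day 2, and genotypes at days 0, 2 and 10. With the block over all days, the day 10 interaction gave 4, as did DESeq2. Of all 14324 genes, 1509 were higher and 1433 lower with that block, and 1284 and 1462 by DESeq2. With the length offset the counts were 11 in WT by day 10 (39.3% of all genes) and 2 in KO by day 2 (8.5%). Between genotypes they were 1 at day 0 (10.9%) and 16 at day 10 (5 higher, 37.1%), with 6 for the day 10 interaction (16.5%). With only the groups compared they were 0 in KO by day 2, where 0 of 12611 genes passed, 0 between genotypes at day 2, where 79 of 12951 genes passed, and 37 at day 10 (21 higher, 16 lower; 62.3% of all genes).

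Leaving out 1 library gave 1 to 1 call in WT by day 2, 5 to 6 by day 10, 1 to 1 and 1 to 2 in KO, 0 to 0, 0 to 1 and 2 to 6 between genotypes at days 0, 2 and 10, and 0 to 0 and 1 to 3 for the interactions. The cause of these shifts was not tested. Beside the losses given with each gene, Ndufa4l2 in KO by day 2 was lost with only the groups compared (FDR 0.0839), as was Kdm3b at days 0 and 2 (FDR 0.0774 and 0.0532). Kdm3b at day 0 was also lost without WT day 0 B (FDR 0.0901) or KO day 0 A (FDR 0.0955).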
